A study of Mus musculus with 32 samples.

Results

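Gasdermins are proteins that stay inactive until a protease cuts them, after which the freed amino-terminal part forms pores in membranes. Pores in the plasma membrane release cytokines such as interleukin-1β and can end in pyroptosis, a lytic and inflammatory form of cell death. Gasdermin D is cut by the inflammatory caspases, while the gasdermin A and C genes are known for expression in skin and gut epithelium. Mice carry several close copies of the A and C genes that humans do not have. The 9 mouse genes Gsdma, Gsdma2, Gsdma3, Gsdmc, Gsdmc2, Gsdmc3, Gsdmc4, Gsdmd and Gsdme were taken by symbol from the 55401 genes counted in each library, and each symbol matched 1 identifier. Of these genes, 8 were among the 15546 tested, and Gsdma2 stayed under 1 cpm in all mice, the unit of level used throughout, in which counts are scaled by the reads on genes in each library.

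RNA sequencing covered the epidermis of the back of 32 mice of the mixed background SKH-1/SV129/BL6/J, aged 10 to 14 weeks, in 8 groups of 4. Wild-type (WT) mice and littermates labelled KO, that is Ppard-/- and deficient for the nuclear receptor PPARβ/δ, were taken 24 h after their back skin had received UV at 120 mJ/cm2, or after sham handling without UV (control), in males and in females. The labels give a time of 24 h for the UV-exposed mice and 0 h for the controls. Exposure and this time label therefore cannot be told apart in any UV contrast. Each library held between 22919428 and 40653581 reads on genes. Values are given as cpm scaled with TMM factors. In the mice labelled KO, Ppard reads were present in every library, between 70.3 and 88.9 cpm without UV against 87.3 to 104.9 cpm in WT mice, and between 174.6 and 238.7 cpm after UV against 252.0 to 325.9 cpm. The lower Ppard level passed the test after UV (log2 fold change -0.42, SE 0.068, adjusted p = 0.00114, edgeR) and not without UV (-0.26, SE 0.068, adjusted p = 0.156). Where in the gene these reads lie was not tested, so the genotype is named below as the labels give it.

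The labelled tissue was checked against marker lists, given as summed cpm per mouse. Basal keratinocyte markers summed to 5321 to 29500 cpm and suprabasal markers to 6617 to 102160 cpm. Markers of the outer hair follicle sheath (244 to 1400 cpm), the inner sheath and shaft (18.2 to 818 cpm), sebocytes (156 to 2718 cpm), Langerhans cells (195 to 874 cpm) and T cells (24.0 to 224 cpm) were present in all mice as sums, and adipocyte markers stayed at or under 4.17 cpm. Single genes of the follicle lists were missing in some mice, where Krt28, Krt31, Krt35, Krt73 and Lhx2 fell to 0 cpm. Krt79 was the most abundant gene of the outer sheath list (155 to 1278 cpm). Dermal fibroblast markers (1.73 to 1982 cpm) and skeletal muscle markers (3.50 to 2186 cpm) varied widely. The library of the female UV-exposed KO mouse 54F stands apart, with the highest fibroblast sum (1982 cpm, where every other mouse lay at or under 92.2 cpm) and the highest neutrophil and monocyte sum (432 cpm). Results that rest on this mouse are given with and without it.

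The A genes and the C genes are close copies, nearest to each other in Gsdmc2, Gsdmc3 and Gsdmc4, and shared sequence limits which reads can be assigned. In the annotation of build GRCm38, the C genes lie side by side on the minus strand of chromosome 15, Gsdmc at chr15:63775968-63808759, Gsdmc2 at chr15:63824346-63845177, Gsdmc3 at chr15:63857724-63878558 and Gsdmc4 at chr15:63891264-63912297. The A genes lie on the plus strand of chromosome 11, Gsdma3 at chr11:98626360-98638226, Gsdma2 at chr11:98646759-98657964 and Gsdma at chr11:98664351-98677708. Gsdmd stands alone at chr15:75862327-75867408 and Gsdme at chr6:50188888-50263862. The first 100 coding bases of the C genes show how few differences separate the copies. They are read 5′ to 3′ on the coding strand from the reference transcripts, each within 1 exon, at chr15:63804493-63804592 (Gsdmc), chr15:63835844-63835943 (Gsdmc2), chr15:63869198-63869297 (Gsdmc3) and chr15:63902831-63902930 (Gsdmc4). Capitals mark bases that differ from Gsdmc.
Gsdmc: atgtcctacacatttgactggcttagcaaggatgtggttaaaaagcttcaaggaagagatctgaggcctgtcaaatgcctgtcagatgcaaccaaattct
Gsdmc2: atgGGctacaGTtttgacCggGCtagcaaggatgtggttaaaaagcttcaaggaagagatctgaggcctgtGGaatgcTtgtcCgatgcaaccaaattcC
Gsdmc3: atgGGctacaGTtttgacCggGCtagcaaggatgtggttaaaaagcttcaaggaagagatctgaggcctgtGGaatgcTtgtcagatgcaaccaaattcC
Gsdmc4: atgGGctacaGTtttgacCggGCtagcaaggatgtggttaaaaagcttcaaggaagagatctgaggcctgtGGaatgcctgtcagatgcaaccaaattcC

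In this stretch Gsdmc2, Gsdmc3 and Gsdmc4 differ from Gsdmc at 12, 11 and 10 positions and share nearly all of these differences. Over the whole coding sequence, identity was 97.08% between Gsdmc2 and Gsdmc3, 93.79% between Gsdmc4 and either of them, and 86.95% to 88.11% between Gsdmc and these 3 copies. Of all windows of 100 bases, the read length, in the transcripts of each gene, 28.6% in Gsdmc2, 28.44% in Gsdmc3, 20.24% in Gsdmc4 and 7.03% in Gsdmc occur unchanged in another gene. On the reference sequence, reads from such windows align more than once and are left out of the counts of these genes. Whether the remaining reads were assigned to the right copy in mice of mixed background was not tested.

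The same stretch of the A genes lies at chr11:98666061-98666160 (Gsdma), chr11:98649054-98649153 (Gsdma2) and chr11:98629352-98629451 (Gsdma3), with capitals for bases that differ from Gsdma.
Gsdma: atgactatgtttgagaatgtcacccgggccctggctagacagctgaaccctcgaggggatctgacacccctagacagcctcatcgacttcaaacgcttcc
Gsdma2: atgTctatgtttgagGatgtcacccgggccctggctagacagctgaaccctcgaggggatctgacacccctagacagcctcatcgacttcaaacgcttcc
Gsdma3: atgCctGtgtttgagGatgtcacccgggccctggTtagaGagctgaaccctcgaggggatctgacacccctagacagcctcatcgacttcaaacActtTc

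Gsdma2 differs from Gsdma at 2 of these 100 positions and Gsdma3 at 7. Coding identity was 91.45% between Gsdma and Gsdma2, 89.81% between Gsdma and Gsdma3 and 89.01% between Gsdma2 and Gsdma3, but only 1.83% of the windows of Gsdma and 1.45% of those of Gsdma2 were shared. Gsdma3, Gsdmd and Gsdme share no window with another gene. Gsdme overlaps Mpp6, a gene on the other strand with 22790 reads over all mice against 681 for Gsdme, and whether the counting used strand is not given in the sources used here, so the low counts of Gsdme are the least certain of the family in that respect.

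Gsdma and Gsdmc made up nearly all gasdermin reads. In WT control mice, 65.3% of the family's reads fell on Gsdma and 33.0% on Gsdmc, and after UV 76.3% and 21.9%. Per kilobase of exon, the median level in the 8 WT control mice was 208 cpm for Gsdma (155.9 to 243 over mice) and 110 cpm for Gsdmc (47.8 to 256), whose ranges overlap. Far below came Gsdmc2 (2.61, from 1.14 to 4.36), Gsdmc4 (1.03, from 0 to 5.68), Gsdmc3 (0.653, from 0.0155 to 2.77), Gsdma3 (0.591, from 0.253 to 1.13), Gsdmd (0.274, from 0.172 to 0.583), Gsdme (0.0609, from 0.0315 to 0.0943) and Gsdma2 (0.0399, from 0 to 0.143). The ranges of neighbours from Gsdmc2 to Gsdmd overlap, and so do those of Gsdme and Gsdma2. Their order within each mouse was not tested. The median of Gsdmc4 lies between 4 WT controls with reads and 4 without, so it is the level of no mouse. Gsdme is also divided by the longest exon length of the family, 12742 bases over all its transcripts, which lowers its value on this scale.

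**Figure D1:**
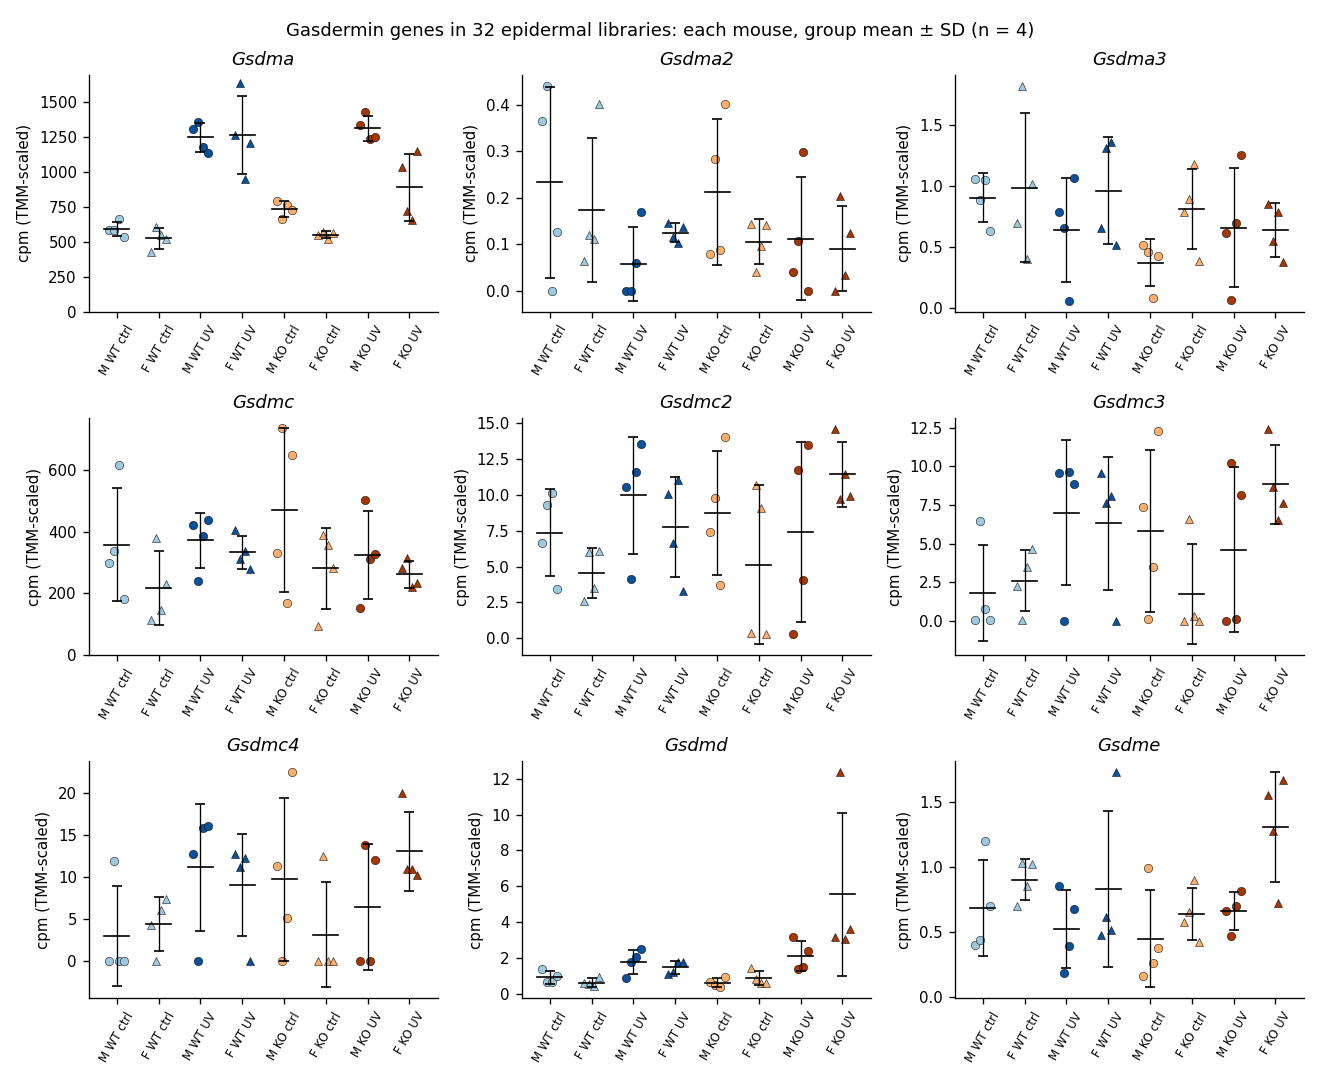
Each panel plots 1 gasdermin gene, with cpm on a linear axis and the 8 groups on the other (M male, F female, ctrl control). Points are mice, the horizontal line is the group mean and the bar its SD (n = 4). Gsdma lies between 425 and 792 cpm without UV and between 655 and 1637 cpm after UV, while Gsdmc4 falls into mice near 0 and mice well above it in nearly every group.

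Gsdma, a gene of the differentiating epidermis whose product is an epithelial pore-forming gasdermin, rose after UV in both genotypes. The male WT control mice had 535, 584, 589 and 663 cpm and the female ones 425, 520, 550 and 608 cpm. After UV the male WT mice had 1140, 1181, 1312 and 1363 cpm and the female ones 954, 1209, 1268 and 1637 cpm. All 8 UV-exposed WT mice lay above all 8 controls. Expression was 2.25-fold higher (95% interval 1.94 to 2.62, log2 fold change 1.17, SE 0.105, adjusted p = 1.02e-10, edgeR). UV called 71% of all genes in WT mice. The share of all genes whose groups do not overlap was not counted, here or for the gasdermins below. Neither a call nor a lack of overlap by itself thus sets a gene apart. The rise stood in males (log2 fold change 1.08, SE 0.149, adjusted p = 5.39e-07) and in females (1.27, SE 0.149, adjusted p = 3.73e-08), where 60.9% and 61.3% of all genes were called. In epidermis as a whole, more RNA per cell and more cells of the kind that express the gene cannot be told apart. Suprabasal keratinocyte markers moved the other way, from 63393 to 73470 summed cpm in WT controls to 10719 to 23364 cpm after UV, and their part in the result was not tested.

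In mice labelled KO, Gsdma started from 664, 732, 763 and 792 cpm in control males and 522, 550, 564 and 575 cpm in control females. After UV it reached 1236, 1252, 1336 and 1430 cpm in males, and 655, 720, 1037 and 1155 cpm in females. Within each sex no UV-exposed mouse overlapped a control, but the lower 2 UV-exposed females lay below the highest control males. The rise was 1.69-fold (95% interval 1.46 to 1.97, log2 fold change 0.76, SE 0.105, adjusted p = 2.75e-07, edgeR), in a contrast that called 70.8% of all genes. It passed the test in males (0.83, SE 0.148, adjusted p = 2.12e-05) and in females (0.69, SE 0.148, adjusted p = 0.000236), against 61.7% and 60.7% of all genes. The KO response was smaller than the WT response by 0.41 on the log2 scale (95% interval -0.71 to -0.11, SE 0.147), which did not pass adjustment (adjusted p = 0.132, edgeR). Without mouse 54F the KO response was 0.82 and the difference -0.39 (adjusted p = 0.157).

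Gsdmd encodes the executioner of inflammasome-driven pyroptosis and was a low-abundance transcript here, with 8 to 40 reads per control mouse. In WT controls its level was 0.638, 0.663, 0.988 and 1.386 cpm in males and 0.408, 0.516, 0.603 and 0.949 cpm in females. After UV it was 0.855, 1.745, 2.036 and 2.479 cpm in WT males and 1.090, 1.232, 1.761 and 1.775 cpm in WT females. The female groups did not overlap, while the lowest UV-exposed male lay inside the range of the male controls. Over both sexes Gsdmd was 2.13-fold higher after UV (95% interval 1.36 to 3.36, log2 fold change 1.09, SE 0.318, adjusted p = 0.00326, edgeR). By sex, the rise passed the test in WT females (1.24, SE 0.455, adjusted p = 0.0203), and in WT males it was 0.95 (SE 0.445, adjusted p = 0.0664). The call in females was lost without control mouse 63F (adjusted p = 0.0505) or 71F (adjusted p = 0.0637), and that of males was gained without UV-exposed mouse 32M (0.0277), control mouse 43M (0.0341) or KO mouse 54F (0.0229).

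Mice labelled KO had 0.352, 0.496, 0.640 and 0.937 cpm of Gsdmd in control males and 0.603, 0.608, 0.817 and 1.439 cpm in control females. After UV the males had 1.371, 1.464, 2.362 and 3.190 cpm and the females 3.049, 3.186, 3.589 and 12.374 cpm. The highest value, 427 reads, came from mouse 54F, and the other 3 females lay close together and above every control. The rise was 4.66-fold (95% interval 2.94 to 7.40, log2 fold change 2.22, SE 0.325, adjusted p = 7.54e-07, edgeR), in males 1.77 on the log2 scale (SE 0.457, adjusted p = 0.00149) and in females 2.68 (SE 0.462, adjusted p = 1.64e-05). Without mouse 54F it was 1.86 over both sexes (adjusted p = 1.2e-06) and 1.92 in females (adjusted p = 0.000181).

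The Gsdmd response was larger in mice labelled KO than in WT mice by 1.13 on the log2 scale (95% interval 0.21 to 2.05, SE 0.447), and the difference did not pass adjustment (adjusted p = 0.167, edgeR). Without 54F it was 0.72 (adjusted p = 0.306). After UV the level itself was 2.11-fold higher in KO mice (95% interval 1.36 to 3.28, log2 fold change 1.08, SE 0.310), just over the threshold (adjusted p = 0.0513, edgeR) and past it with DESeq2 (adjusted p = 0.0222). Without 54F this difference fell to 0.68 (adjusted p = 0.173). Leaving out WT control 43M, KO control 44F, KO UV-exposed mouse 52F, 59M, 66F or 74F, or WT UV-exposed mouse 77F gained the call, with adjusted p between 0.0306 and 0.0496. Without UV the genotypes differed by -0.05 (95% interval -0.71 to 0.61, adjusted p = 0.991).

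The sum of the neutrophil and monocyte markers moved with Gsdmd. Their summed level ranged from 3.87 to 49.1 cpm in WT controls (median 10.5) and from 16.4 to 62.2 cpm after UV (median 28.7), and from 5.11 to 61.3 cpm in KO controls (median 8.75) and from 19.3 to 432 cpm after UV (median 54.7). All 6 listed genes were detected in some mice, with Lyz2 the most abundant (1.69 to 356 cpm) and Ly6g, which marks neutrophils, at a median of 0 and at most 0.376 cpm. The plot of Gsdmd against this sum shows the mice with the highest sums, 54F (432 cpm) and 74F (152 cpm), at the highest Gsdmd levels, and the control mice with the highest sums, 43M (49.1 cpm, WT) and 44F (61.3 cpm, KO), at the highest Gsdmd levels of the controls. The part of these cells in the Gsdmd result was not tested.

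**Figure D2:**
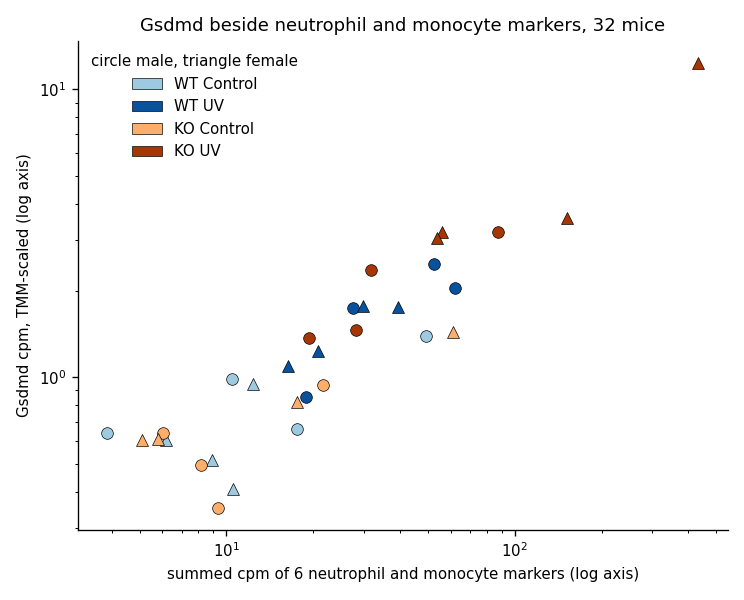
Gsdmd cpm (log axis) is plotted against the summed cpm of 6 neutrophil and monocyte markers (log axis) in each of the 32 mice, with colours for genotype and exposure. Values climb together from controls near 0.4 cpm of Gsdmd to mouse 54F at 12.4 cpm.

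Gsdme, whose protein can turn apoptosis into pyroptosis, stayed near 1 cpm or below in most mice, with 4 to 50 reads each. WT controls had 0.401 to 1.20 cpm (median 0.777) and UV-exposed WT mice 0.182 to 1.73 cpm (median 0.564), a log2 fold change of -0.24 (95% interval -0.97 to 0.48, adjusted p = 0.556, edgeR). In mice labelled KO the range was 0.160 to 0.992 cpm without UV (median 0.501) and 0.469 to 1.67 cpm after it (median 0.767). The groups overlapped in both genotypes. The KO change of 0.79 (95% interval 0.05 to 1.52, SE 0.358) missed the threshold in edgeR (adjusted p = 0.0519) and passed it with DESeq2 (0.0471), limma-trend (0.0218) and sex as an additive term (0.0393), and in 9 of the 32 fits that left out a mouse, with the smallest adjusted p (0.00465) without control mouse 44M. The difference between the genotypes' responses was 1.03 (SE 0.504, adjusted p = 0.257). T cell markers summed to 111 to 224 cpm in WT controls, 24.0 to 60.9 cpm in UV-exposed WT mice, 107 to 187 cpm in KO controls and 33.6 to 83.3 cpm in UV-exposed KO mice, and their part in the level of Gsdme was not tested.

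**Figure D3:**
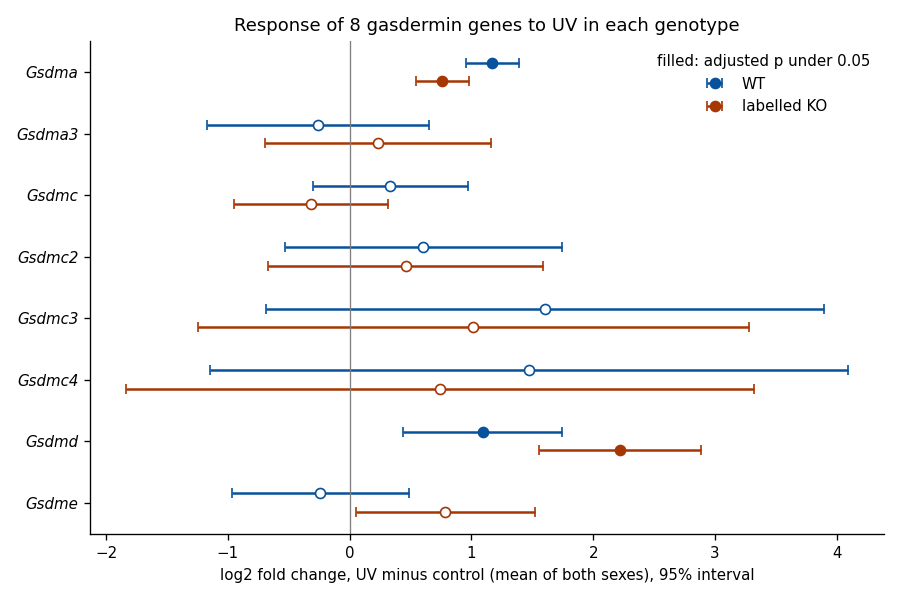
The log2 fold change of each tested gasdermin after UV (mean of both sexes) is plotted with its 95% interval for WT mice and mice labelled KO. Filled points passed the test: Gsdma and Gsdmd in both genotypes. The intervals of Gsdmc3 and Gsdmc4 span from -1.84 to 4.09.

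Gsdma3, known from hair-loss mutants of the mouse, had 0.060 to 1.82 cpm over all mice and did not pass the test after UV in WT mice (log2 fold change -0.26, 95% interval -1.17 to 0.65) or in KO mice (0.23, -0.70 to 1.16). Gsdma2 had 0 to 15 reads per mouse, and 3 reads correspond to 0.0738 to 0.131 cpm at these depths, so no change was measurable for it. Summing the 3 A genes left the UV response of Gsdma at 1.17 in WT mice (adjusted p = 1.03e-10, edgeR) and 0.76 in KO mice (adjusted p = 2.75e-07). This sum could hardly differ, since WT controls had 124268 reads of Gsdma beside 45 of Gsdma2 and 208 of Gsdma3.

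Gsdmc, an epithelial gasdermin that caspase-8 can cut, was abundant and varied strongly between mice of a group. It ranged from 115 to 615 cpm in WT controls and from 240.3 to 439 cpm after UV, and from 95.3 to 735 cpm in KO controls and from 153 to 502 cpm after UV. The UV-exposed mice lay inside the range of the controls in both genotypes. Its log2 fold change was 0.33 in WT mice (95% interval -0.30 to 0.97, adjusted p = 0.342, edgeR) and -0.32 in KO mice (-0.95 to 0.31, adjusted p = 0.365), with a difference of -0.65 between them (-1.55 to 0.24, adjusted p = 0.420). With the 4 C genes summed the values were 0.37 (adjusted p = 0.289) and -0.25 (adjusted p = 0.476). That sum is mostly Gsdmc, with 62892 reads in WT controls beside 1306 of Gsdmc2, 493 of Gsdmc3 and 822 of Gsdmc4. The intervals of Gsdmc hold both a fall and a rise.

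Gsdmc4 was present in some mice and nearly absent from others of the same group. In 12 of the 32 mice it had 0 or 1 read, and in the other 20 between 116 and 839 reads, with no mouse in between. Male WT controls had 0, 0, 0 and 322 reads and female WT controls 0, 135, 163 and 202. Male WT mice after UV had 1, 401, 528 and 570 reads and the females 0, 289, 351 and 360. Reads were thus missing in mice of both exposures, and the same holds for the KO label. Male KO controls had 0, 116, 284 and 839 reads and female KO controls 0, 0, 0 and 306. After UV the male KO mice had 0, 1, 325 and 383 reads, while all 4 females held reads (244, 335, 379 and 514). In all, 4 of 8 WT controls, 6 of 8 UV-exposed WT mice, 4 of 8 KO controls and 6 of 8 UV-exposed KO mice had reads of Gsdmc4, so mice with and without them occurred under each genotype and exposure.

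Its neighbour Gsdmc3 followed the same mice. The 12 mice with at most 1 read of Gsdmc4 had 0 to 21 reads of Gsdmc3, and the other 20 had 71 to 458. For Gsdmc2, the next copy along the chromosome, the split was only partial: 3 of the 12 mice had 7, 9 and 11 reads (KO UV-exposed male 58M, KO control females 69F and 44F), the other 9 had 96 reads or more, and the 20 had 83 to 525. Gsdmc, at the end of the cluster, showed no such split, with 2650 to 20760 reads in the 12 mice and 3626 to 24225 in the 20. In the 20 mice, Gsdmc4 had 1.26 to 1.90 reads for each read of Gsdmc3 (median 1.56), and log2 cpm of the 2 genes ran together (Pearson's r = 0.95, Spearman's rho = 0.88, not adjusted for group, and r = 0.91 without the 2 mice farthest from the median). No test was made, since these mice are told apart by the reads themselves. The 3 annotated pseudogenes between the copies, Gsdmcl1, Gsdmcl2 and Gsdmcl-ps, held 1 read in all 32 libraries together. The mice are of mixed strain background, and the part of strain differences at this cluster was not tested.

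**Figure D4:**
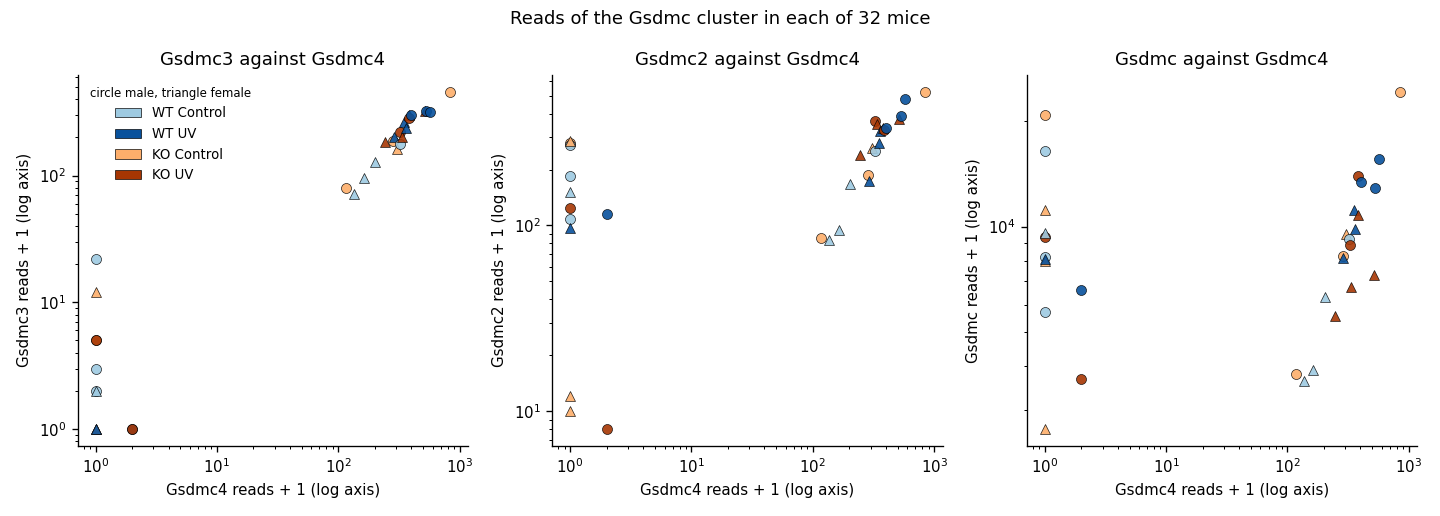
Reads of Gsdmc3, Gsdmc2 and Gsdmc are plotted against those of Gsdmc4 in each mouse, both on log axes after adding 1. The left panel shows 12 mice in the lower corner (at most 1 read of Gsdmc4 and 21 of Gsdmc3) and 20 in the upper one. The split is partial for Gsdmc2 and absent for Gsdmc.

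The 3 copies had wide errors in the UV comparison, widest for Gsdmc3 and Gsdmc4, and the part of the split in them was not tested. Fitted over all mice, the WT response was 1.47 for Gsdmc4 (SE 1.28, adjusted p = 0.310, edgeR), 1.61 for Gsdmc3 (SE 1.12, adjusted p = 0.203) and 0.61 for Gsdmc2 (SE 0.553, adjusted p = 0.337). In mice labelled KO it was 0.74 (SE 1.26), 1.01 (SE 1.10) and 0.46 (SE 0.552). None passed the test. For Gsdmc3 and Gsdmc4, but not for Gsdmc2, leaving out a single mouse changed this: without WT control 54M, which alone among the male WT controls had Gsdmc4 reads, Gsdmc4 (6.17, adjusted p = 0.0145) and Gsdmc3 (2.93, adjusted p = 0.0389) were called in WT mice, and without KO control 60F they were called in KO mice (5.47, adjusted p = 0.0311, and 2.89, adjusted p = 0.0433). Without these mice no male WT control and no female KO control, respectively, had Gsdmc4 reads, and fold changes fitted to such groups depend on the prior count and are no bounds.

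In the contrasts of genotype and of sex, which share their mice with the UV contrasts, edgeR called no gasdermin. Without UV, the genotypes differed in 0.206% of all genes, and no member had an unadjusted p under 0.05. After UV, 3.31% of all genes were called, and Gsdmd and Gsdma (-0.22, 95% interval -0.43 to 0.00, adjusted p = 0.240) had an unadjusted p under 0.05, of which DESeq2 called Gsdmd and limma-trend neither. The genotype-by-UV interaction, with 0.765% of all genes called, held the same 2 members at an unadjusted p under 0.05 and no call by the other tools. Of all 15546 genes, 1324 had an unadjusted p under 0.05 in edgeR without UV, 3121 after UV and 3042 for the interaction. Female control mice had less Gsdma (-0.29, 95% interval -0.51 to -0.08, adjusted p = 0.0804, edgeR) and less Gsdmc (-0.73, -1.37 to -0.10, adjusted p = 0.139) than male ones, neither past adjustment, where 6.86% of all genes were called. After UV the difference in Gsdma was -0.27 (adjusted p = 0.134) and in Gsdme 0.81 (adjusted p = 0.188), against 3.03% of all genes. The Gsdma difference was called only without WT mouse 57F (adjusted p = 0.0487) or KO mouse 74F (0.0267). The sex-by-UV interaction called 0% of all genes in either genotype, and among the gasdermins none had an unadjusted p under 0.05 in edgeR or DESeq2. In edgeR, 419 of all 15546 genes had such a p in WT mice and 1482 in KO mice. With limma-trend no gasdermin did in WT mice and 3 did in KO mice. Shares over all genes are given for edgeR only, here and below, so counts from the other tools stand without one.

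The genes that act around gasdermins were described from a list of 40 genes, of which 35 were tested. Nlrp6, Naip1, Gzma, Elane and Ctsg fell under the filter. After UV, 12 rose, 13 fell and 10 did not pass the test in WT mice, and 14, 13 and 8 in mice labelled KO. Over all genes, 34.5% rose and 36.5% fell in WT mice, and 37.3% and 33.5% in KO mice, so the list moved about as often as other genes. Its median log2 fold change was -0.02 in WT mice and 0.06 in KO mice, beside -0.01 and 0.09 over all genes. The gasdermins' own median was 0.85 and 0.75 over the 8 members tested. Of these, 2 were called in each genotype, against 71% of all genes in WT mice and 70.8% in KO mice. The WT median takes in Gsdmc3 and Gsdmc4, at 1.61 and 1.47 with wide errors and not called. No listed gene was called by edgeR for genotype without UV, genotype after UV or the interaction. There 4, 9 and 11 of the 35 had an unadjusted p under 0.05, beside 1324, 3121 and 3042 of all 15546 genes. DESeq2 called 0, 2 and 3 and limma-trend none, without a share over all genes for these tools.

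Among the sensors and the adaptor, 2 of 14 tested rose and 7 fell in WT mice, beside 34.5% and 36.5% of all genes. In KO mice 3 rose and 5 fell, beside 37.3% and 33.5% of all genes. The largest rise of the list was that of Mefv, which encodes the sensor pyrin, from a mean of 0.106 ± 0.121 cpm (SD, n = 8) to 1.33 ± 0.857 cpm in WT mice (log2 fold change 3.79, SE 0.601, adjusted p = 2.6e-06, edgeR). The control mean lies at the level of 3 reads (0.0738 to 0.131 cpm), so the size of this change is poorly known. Nlrp3, the sensor of a broad range of danger signals, rose by 2.35 in WT mice (SE 0.282) and 3.14 in KO mice (SE 0.291), from 0.338 to 0.986 cpm in WT controls to 1.04 to 5.30 cpm after UV. The largest falls of the list in WT mice were also those of sensors. Nlrp1a fell from 1.13 to 3.10 cpm in WT controls to at most 0.218 cpm (log2 fold change -4.60, SE 0.648). Its level after UV lies close to that of 3 reads, so the size of this fall is also poorly known. Nlrp1b fell by 2.46 on the log2 scale in WT mice (SE 0.546). In KO mice the change of Nlrp1b, -0.76, did not pass the test (adjusted p = 0.189, edgeR), and without 54F it was -1.19 (adjusted p = 0.0359, edgeR). Nlrp10, an inflammasome gene of the differentiating epidermis, fell from 397.7 ± 81.7 cpm to 85.0 ± 12.1 cpm in WT mice (SD, n = 8; log2 fold change -2.22, SE 0.134). Pycard, the adaptor ASC that links sensors to caspase-1, fell in both genotypes, from 209 ± 15.5 to 64.9 ± 6.02 cpm in WT mice (log2 fold change -1.68, SE 0.077) and by 1.59 on the log2 scale in KO mice (SE 0.076).

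Of the proteases that cut gasdermins, Casp1 fell from 58.5 ± 15.7 to 26.6 ± 4.81 cpm (SD, n = 8) in WT mice (log2 fold change -1.13, SE 0.152, adjusted p = 1.79e-07, edgeR) and by 1.23 on the log2 scale in KO mice (SE 0.152). Casp4, which senses cytosolic lipopolysaccharide, was -0.58 in WT mice (adjusted p = 0.113) and -0.56 in KO mice (adjusted p = 0.127), and was called only without WT control 56M (adjusted p = 0.0448) or KO mouse 54F (adjusted p = 0.0448). Casp8 rose by 0.56 in WT mice (SE 0.071) and 0.40 in KO mice (SE 0.071).

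Among the released cytokines, Il1b rose from 0.913 to 3.23 cpm in WT controls to 9.97 to 36.2 cpm after UV (log2 fold change 3.36, SE 0.351, adjusted p = 2.04e-09, edgeR) and from 0.528 to 2.76 cpm to 11.9 to 86.3 cpm in KO mice (4.46, SE 0.368). Il18, which keratinocytes make constitutively, fell from 149.5 ± 29.2 to 64.4 ± 12.8 cpm (SD, n = 8) in WT mice (-1.21, SE 0.123) and by 1.39 on the log2 scale in KO mice (SE 0.123). Ninj1, whose protein tears the plasma membrane in the last step of lytic death, rose by 0.68 in WT mice (SE 0.145, adjusted p = 0.000151) and 1.14 in KO mice (SE 0.146, adjusted p = 8.74e-08). The difference between the genotypes' responses was 1.10 for Il1b (SE 0.468, adjusted p = 0.192) and 0.46 for Ninj1 (SE 0.204, adjusted p = 0.213), neither past adjustment. Over the fits that left out a mouse, the difference for Il1b ranged from 0.787 to 1.281 and its KO rise from 4.147 to 4.651. Without 54F the difference for Ninj1 was 0.24 (adjusted p = 0.387, edgeR). Of the 8 genes for rupture, repair and palmitoylation, 5 rose and 2 fell in WT mice, beside 34.5% and 36.5% of all genes. In KO mice 4 rose and 3 fell, beside 37.3% and 33.5% of all genes. Cell type markers moved beside these genes after UV in WT mice, with medians of summed cpm from 10.5 to 28.7 for neutrophils and monocytes, from 68274 to 16152 for suprabasal keratinocytes and from 734 to 234 for Langerhans cells, and their part in these changes was not tested. The transcription factor genes Irf1 and Irf2 split, with Irf1 higher and Irf2 lower after UV in both genotypes.

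**Figure D5:**
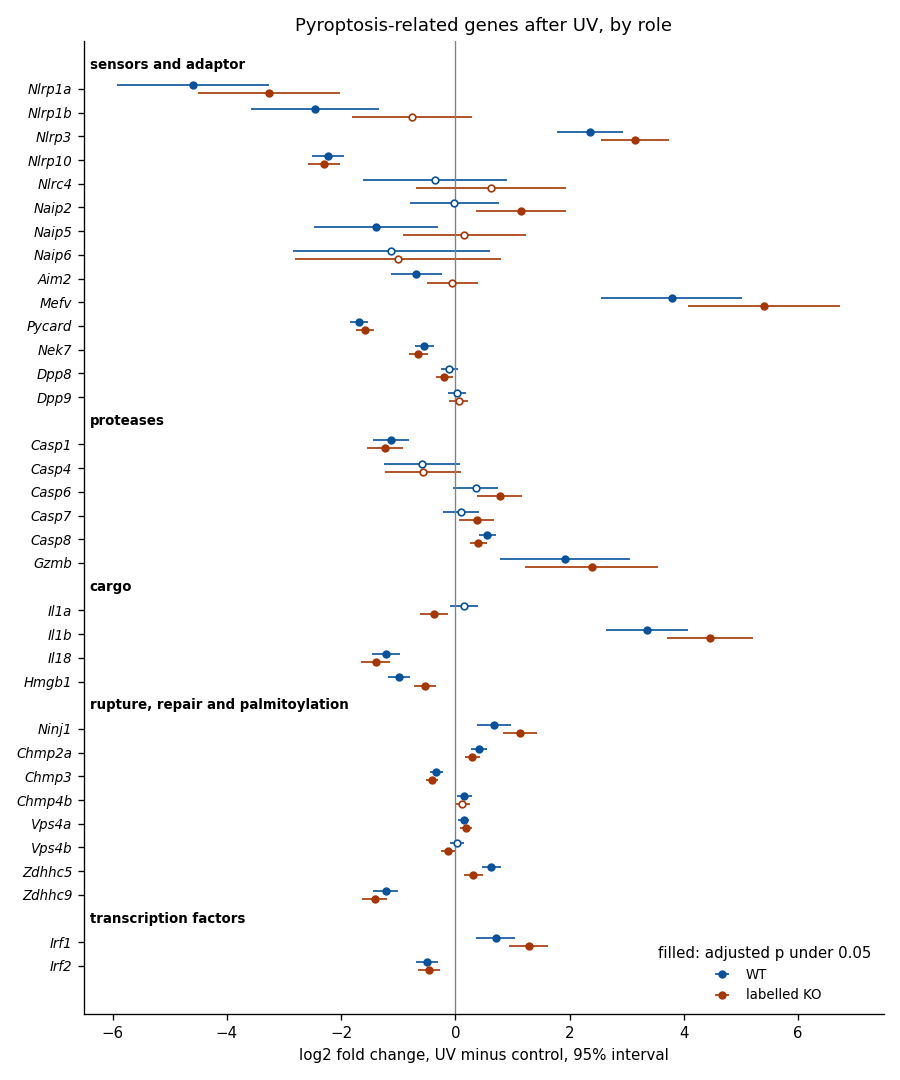
Log2 fold changes after UV with 95% intervals are plotted for tested genes of the list, grouped by role, in WT mice and mice labelled KO. Filled points passed the test. Nlrp3, Mefv and Il1b lie to the right of 0 and Nlrp1a, Nlrp10, Pycard, Casp1 and Il18 to the left in both genotypes.

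Genes whose level varied most like a gasdermin between mice of the same group were ranked by Pearson's r of log2 cpm after subtracting the 8 group means, over 32 mice and 12071 candidate genes (12072 for Gsdma3 and Gsdme). As the highest of so many, these values carry no test. For Gsdma they were Tmem40 (r = 0.91, rho = 0.86), Gm43737 (r = 0.90, rho = 0.88) and Pld3 (r = 0.89, rho = 0.80). For Gsdmc they were Gjb1, a gap junction gene (r = 0.91, rho = 0.86), and the keratins of stressed and thickened epidermis, Krt16 (r = 0.89, rho = 0.85) and Krt6b (r = 0.88, rho = 0.87). Gsdmd ran with Itgb2, an integrin gene of leukocytes (r = 0.85, and 0.80 without 54F), Ftl1 (0.84 and 0.80) and Plekho2 (0.84 and 0.77). Gsdme ran with Cd2, a gene of T cells (r = 0.78), Il12rb2 (0.72) and Sash3 (0.69). Gsdma3, at few reads, reached only 0.69 with Pkdcc and Gmcl1 and 0.66 with Tnfsf10.

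Gsdmc2 ran with Terf1 (r = 0.72, rho = 0.60), the cornified envelope gene Sprr2a3 (0.71, 0.74) and Gsdmc (0.70, 0.76). For Gsdmc3 and Gsdmc4 the first-ranked gene was the other of the pair, followed for both by Serpina3i and Serpina3h, neighbouring protease inhibitor genes on chromosome 12. Because the mice fall into separate clusters for Gsdmc3 and Gsdmc4, no pooled r is given. Within the 20 mice with Gsdmc4 reads, r between Gsdmc4 and Serpina3i was -0.24 (rho = -0.25, not adjusted for group, so not comparable with the ranking). Serpina3i had 25 to 1027 reads in these 20 mice (median 546.5) and 19 to 656 in the other 12 (median 156), ranges that overlap.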

How the data were processed

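RNA of the epidermis of 32 mice (8 groups of 4 by sex, genotype and exposure, mapped from the labels) was sequenced as single reads. Per the labels and the submitters' processing notes, the authors demultiplexed with bcl2fastq, trimmed with cutadapt 1.8, aligned with STAR 2.5.3a to GRCm38 and counted reads per gene with HTSeq 0.9.1. The deposited values are raw counts for 55401 genes, with no normalization or filter, and reads aligned more than once are left out of them. Reads on no gene (6.80% to 9.75% of uniquely aligned reads) stayed out of library sizes and tests. Limits derived from counts cover counting error only, since no molecular identifiers are described.

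A gene was tested where any mouse reached 1 cpm (15546 genes). All 32 mice were fitted together with 8 group means in edgeR's quasi-likelihood test (edgeR 4.0.16, R 4.3.3, TMM factors), p-values were adjusted by Benjamini-Hochberg over all genes tested, and a call needs an adjusted p under 0.05. The 13 contrasts cover UV, genotype, sex and their interactions. The p-values measure the spread between mice. Alternatives were RLE factors, DESeq2 1.42.0, limma-trend (limma 3.58.1, prior count 1), the kind of test the study used, filterByExpr, no filter, sex as an additive term, each genotype alone, a fold threshold of 1.5, summed paralogs and the removal of each mouse.

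The gasdermins, the list of genes around them and the marker lists were chosen with earlier results of these data known. Named are all gasdermins, listed genes whatever their values (Casp1, Casp4, Casp8, Pycard, Il1b, Il18, Ninj1), the 3 largest called rises and falls of the list after UV in WT mice with a mean of at least 10 counts, listed genes called by genotype, and the 3 genes most like each gasdermin (candidates with a mean of at least 50 counts). A further listed gene counts in the totals and is not reported here. Irf1 and Irf2, and the listed genes under the filter, were named after their values were seen. Sequences and coordinates are from GENCODE M21 (GRCm38), the build of the processing notes, where the study's methods print a human build name. Shared windows and identity were computed from its transcripts (Biopython 1.88).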

Additional observations from a re-analysis of the deposited data

Results flagged for a closer look

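Of the 64 sets of 4 mice tested (8 gasdermins in 8 groups), 9 held a mouse far from the other 3 by Dixon's criterion for the gap over the range. Chance gives about 1 in 20 for normal and independent values, which these are not. Most of the flagged sets concern the pair Gsdmc3 and Gsdmc4. Both genes are near 0 or well above it in the same mice, so their flags largely repeat the split described above. Among male WT controls, mouse 54M was highest for Gsdmc3 (6.446 cpm) and Gsdmc4 (11.86 cpm), and among female KO controls mouse 60F was highest for both (6.573 and 12.492 cpm). Male UV-exposed WT mouse 38M was lowest for Gsdmc3 with 0 cpm, and female UV-exposed WT mouse 77F was lowest for Gsdmc4 with 0 cpm. In female UV-exposed KO mice, 52F was highest for Gsdmc4 (19.972 cpm), and all 4 mice of that group had reads. The other flagged values were Gsdmd in 54F (12.374 cpm), the library with the highest fibroblast sum and the highest neutrophil and monocyte sum, and Gsdme in 77F (1.726 cpm).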

How the results depend on the processing

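No paired analysis was possible because each number with its sex letter names a different mouse and no pair of groups shares more than 1 number. Under RLE factors, DESeq2, limma-trend, filterByExpr, no filter, sex as an additive term, each genotype alone and a fold threshold of 1.5, Gsdma and Gsdmd stayed called after UV over both sexes in each genotype. The number of gasdermins called changed to 1 for genotype after UV with DESeq2 (Gsdmd), 2 in male WT mice with each genotype alone (Gsdmd gained), 1 in female WT mice (Gsdmd lost) and 1 in female KO mice (Gsdma lost) with the fold threshold, and 5 in female KO mice with limma-trend (Gsdmc2, Gsdmc3 and Gsdmc4 gained). Over the fits that left out a mouse, it ranged from 2 to 4 for UV in WT mice and in KO mice, 0 to 1 for genotype after UV and for sex after UV, 1 to 2 for UV in male and in female WT mice, and 2 to 4 in female KO mice. The shares of all genes called under these settings and in these fits are not given, so the counts cannot be read against them. The cause was not tested.

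Directions reversed for uncalled values. With limma-trend they were 0.172 (Gsdmc2) and 0.177 (Gsdmc3) for the interaction, -0.463 (Gsdmc2) for genotype without UV, and -0.29 (Gsdmc2) and 0.269 (Gsdmc3) for genotype after UV, where sex as an additive term gave 0.026 (Gsdmc3). The interaction of Casp4 was -0.025 with RLE, -0.026 with DESeq2, -0.126 with limma-trend, -0.023 with filterByExpr and -0.038 with no filter. Over the fits that left out a mouse, the UV response of Gsdma3 in KO mice ranged from -0.024 to 0.412. The interaction ranged from -0.377 to 0.159 for Gsdmc2, -1.911 to 1.272 for Gsdmc3 and -5.432 to 3.991 for Gsdmc4. Genotype without UV ranged from -0.101 to 0.408 for Gsdmc2, -1.34 to 1.849 for Gsdmc3, -4.128 to 5.302 for Gsdmc4 and -0.231 to 0.1 for Gsdmd, and genotype after UV from -0.165 to 0.232 for Gsdmc2, -0.437 to 0.134 for Gsdmc3 and -0.477 to 0.071 for Gsdmc4. Without 54F the interaction of Casp4 was -0.203.

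Depth limits Gsdma2, Gsdma3, Gsdmd and Gsdme, whose counts were low in most mice, and shared sequence limits Gsdmc2, Gsdmc3 and Gsdmc4.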
